A study of Homo sapiens with 30 samples.

Results

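The 10 genes described here make, coat and break down the triglyceride of lipid droplets. They were taken by symbol from a table of 38122 genes: the phosphatidate phosphatases LPIN1 and LPIN2, the acyltransferases DGAT1 and DGAT2, the droplet coat proteins PLIN2 and PLIN3, the lipase inhibitors G0S2 and HILPDA, the triglyceride lipase PNPLA2 (also called ATGL) and its coactivator ABHD5 (also called CGI-58). All 10 were found. RNA sequencing had measured 30 libraries. They came from 3 established lines of human cancer, FaDu from a squamous tumour of the hypopharynx, HCT116 from a colon tumour and SiHa from a squamous tumour of the cervix. Each line was grown at pH 7.4 or at pH 6.5, with 5 libraries per group, and cells at pH 6.5 had been held there for at least 1 month. All groups shared a DMEM medium with 10 mM glucose, 2 mM glutamine, 10% fetal bovine serum, penicillin and streptomycin, with HEPES and PIPES at 25 mM each as buffers, at 37 °C and 5% CO2. The series asks how acid tumours are linked to the loss of fat tissue. These libraries hold the cancer cells, with no fat tissue in them.

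Cells store surplus fatty acids as triglyceride. Lipins remove the phosphate from phosphatidate to give diacylglycerol, and DGAT enzymes add the last fatty acid. The product gathers in droplets coated by perilipins. PNPLA2, activated by ABHD5, removes the first fatty acid again, and G0S2 and HILPDA bind PNPLA2 and restrain it. PLIN2 protein is stable mainly when it sits on droplets, so the amounts of transcript given here are not amounts of fat.

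Between 21.02 and 55.7 M reads were counted per library. When none is counted, a library still allows up to 3 reads, which is 1.90 to 5.01 normalised counts, for counting error only. In 9 libraries the reads went against the label or stood apart. Libraries labelled FaDu pH 7.4 replicates 2 to 5 expressed HCT116-restricted genes at a median of 80.4%, 30.6%, 42.7% and 61.9% of the amount in HCT116, and FaDu-restricted genes at 10.9%, 66.6%, 50.2% and 27.7% of the amount in FaDu. Libraries labelled HCT116 pH 6.5 replicates 5, 6 and 7 expressed SiHa-restricted genes at 37.5%, 101% and 104%, and HCT116-restricted genes at 58.8%, 1.94% and 0.581%. Most of these libraries thus held reads of 2 lines. VIM, an intermediate filament gene, stood at 2817 and 2863 in SiHa pH 7.4 replicates 6 and 7. It stood at 2.04, 28.4 and 165 in SiHa pH 7.4 replicates 1, 4 and 5, and at 0 to 5.60 in SiHa at pH 6.5. These 9 were set apart, and 21 were kept: 5 against 3 for SiHa, 2 against 5 for HCT116 and 5 against 1 for FaDu (pH 6.5 against pH 7.4). In the 21, the median over genes restricted to another line was at most 0.0708% of their level. Libraries of FaDu pH 6.5, HCT116 pH 7.4 and SiHa pH 6.5 had served to choose these genes, so a low value was fixed for them. Among the other libraries kept the highest was 0.0465%, for SiHa-restricted genes in HCT116 pH 6.5 replicate 1. No label tells whether replicates were separate cultures, so a p-value here measures only the spread between libraries, which may be technical.

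Levels below are normalised counts. A change is the log2 ratio, pH 6.5 over pH 7.4, given ± SE, and it was called where limma's p, adjusted after Benjamini-Hochberg over all genes tested, was under 0.05. In SiHa, G0S2, LPIN2 and PLIN2 rose and DGAT2 and ABHD5 fell at pH 6.5, which made 5 of 10 genes called against 31.2% of all genes tested. In HCT116, PNPLA2 rose and LPIN2 fell, 2 of 9 genes tested against 20.2%. In FaDu, HILPDA rose and ABHD5 fell, 2 of 9 against 7.36%. G0S2 was below the level needed for a test in HCT116 and FaDu. None of the 9 genes tested in every line was called in the same direction in all 3 lines. The share of all genes called alike in 3 lines is not given here, so this count describes no trait of the 10. In bulk RNA, fewer cells that express a gene and less of its RNA per cell cannot be told apart.

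**Figure D1:**
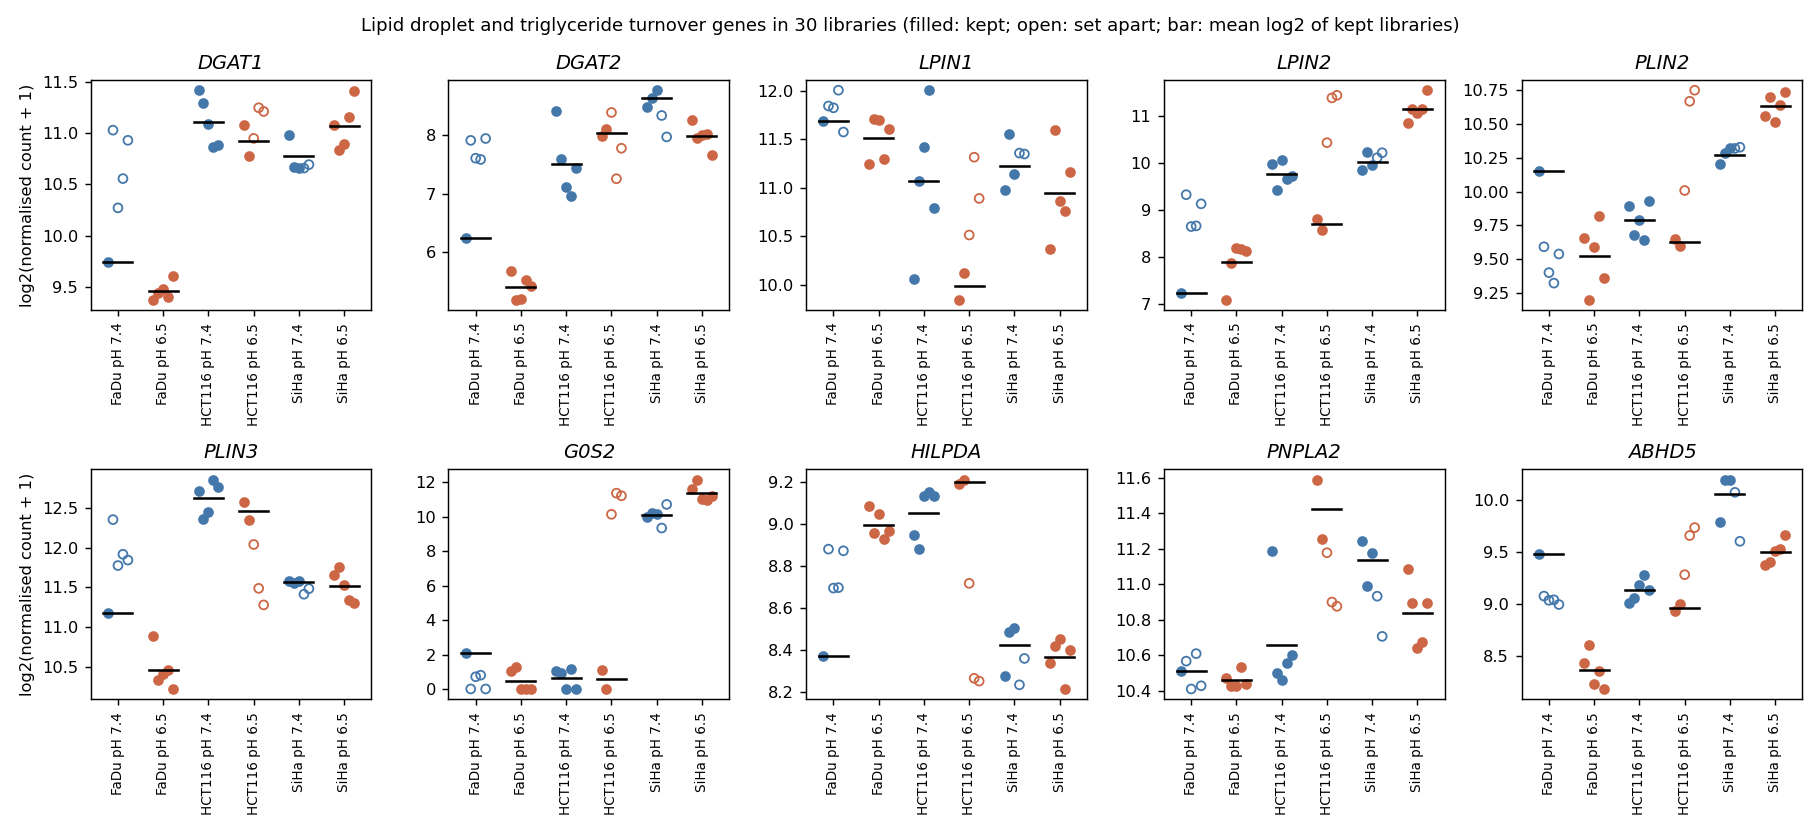
Level of each of the 10 genes, as log2 of the normalised count plus 1, in all 30 libraries by line and pH. Filled points are libraries kept, open points are the 9 set apart, and bars are means over libraries kept. G0S2 lies near 0 in the FaDu and HCT116 libraries kept and above 1021 normalised counts in the SiHa libraries kept, and the open HCT116 pH 6.5 points lie at SiHa levels.

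The 3 genes that rose in SiHa are shown first by the 250 bases before their transcription start (RefSeq, GRCh38.p14, printed 5′ to 3′ on the gene's strand), because they moved together in that line. The capitals mark the letters ACGTG, a form of the core of the hypoxia response element, and CACGTG, the E-box, which contains ACGTG. Other forms of that core were neither marked nor counted. LPIN2 is shown at chr18:3013145-3013394 on the minus strand, PLIN2 at chr9:19127493-19127742 on the minus strand and G0S2 at chr1:209675162-209675411 on the plus strand.
LPIN2: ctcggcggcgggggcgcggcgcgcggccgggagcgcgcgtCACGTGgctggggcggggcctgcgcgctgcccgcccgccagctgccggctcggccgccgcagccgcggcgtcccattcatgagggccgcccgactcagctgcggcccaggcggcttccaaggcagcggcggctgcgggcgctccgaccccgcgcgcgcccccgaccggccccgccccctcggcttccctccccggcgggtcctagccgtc
PLIN2: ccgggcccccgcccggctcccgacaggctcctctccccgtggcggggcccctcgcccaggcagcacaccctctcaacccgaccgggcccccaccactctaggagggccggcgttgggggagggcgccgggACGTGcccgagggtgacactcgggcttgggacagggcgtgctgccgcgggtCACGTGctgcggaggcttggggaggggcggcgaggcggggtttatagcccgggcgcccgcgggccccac
G0S2: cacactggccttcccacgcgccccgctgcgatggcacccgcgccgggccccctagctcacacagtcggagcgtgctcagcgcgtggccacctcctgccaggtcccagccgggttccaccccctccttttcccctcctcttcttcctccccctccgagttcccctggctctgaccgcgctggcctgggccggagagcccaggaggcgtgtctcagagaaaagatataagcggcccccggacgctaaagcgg
LPIN2 held 1 CACGTG, starting 210 bases before the start site. PLIN2 held 1 CACGTG at 69 bases and 1 further ACGTG at 120 bases. Neither string occurred on either strand of the G0S2 window, nor in the window of a second LPIN2 start at chr18:3011948-3012197. CpG pairs numbered 45 in the LPIN2 window shown, 28 in PLIN2 and 21 in G0S2, against a median of 11 over 35116 such windows.

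Entries were held for 7 of the 10 genes, with 12 windows in all. On either strand, ACGTG was present in 2 of the 12 and in 18.5% of all windows, and CACGTG was present in 2 and in 6.34%. CCAAT, the NF-Y box, was present in 1, that of PLIN3, and in 32.01% of all windows. GGGCGG, the GC box, was present in 9 and in 42.6%. ABHD5, LPIN1 and LPIN2 have several windows each, and those of ABHD5 overlap, so these counts are not of separate genes. A match describes letters in a window and not a site that a factor was seen to use. DGAT1, DGAT2 and HILPDA had no entry.

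Synthesis comes first in the pathway. LPIN2 (ENSG00000101577), one of the enzymes that give diacylglycerol, stood at 1837, 2241, 2123, 2258 and 2971 in the 5 SiHa libraries at pH 6.5 and at 915, 1193 and 994 in the 3 at pH 7.4. Every SiHa library at pH 6.5 was above every one at pH 7.4. The change was 1.13 ± 0.15 (adjusted p = 0.000378). HCT116 went the other way: 446 and 379 at pH 6.5 against 1005, 683, 1061, 807 and 834 at pH 7.4, again with no overlap. There the change was -1.07 ± 0.18 (adjusted p = 0.00169).

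In FaDu, LPIN2 stood at 135, 232, 291, 287 and 279 at pH 6.5 and at 148 in the 1 library at pH 7.4. Replicate 1 at pH 6.5 lay below that library and the other 4 above it. The change of 0.67 ± 0.41 did not pass the test (adjusted p = 0.326), and without replicate 1 it was 0.87 and did (adjusted p = 0.00809). LPIN2 thus had a called change of opposite sign in SiHa and HCT116, and the difference of its pH effect between these lines was -2.21.

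LPIN1 (ENSG00000134324), the other lipin measured among the 10, spread widely between libraries. SiHa libraries at pH 6.5 stood at 1318, 3095, 1863, 1729 and 2287, and those at pH 7.4 at 2019, 2996 and 2255, so that the groups overlapped. HCT116 stood at 920 and 1117 at pH 6.5 and at 1067, 2149, 2728, 4103 and 1774 at pH 7.4, where replicate 1 was the only one within the pH 6.5 range. The HCT116 change of -1.08 ± 0.37 missed the threshold (adjusted p = 0.0598). It passed by edgeR (adjusted p = 0.0466), in 1 fit over all 21 libraries (0.0289) and without pH 7.4 replicate 1 (0.00446). With the replicate number as a block it passed at a smaller change of -0.58 (0.0260). FaDu showed 2416, 3338, 3307, 2512 and 3108 against 3306, a change of -0.18 ± 0.21 (adjusted p = 0.597).

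DGAT2 (ENSG00000062282), one of 2 enzymes that complete triglyceride, fell in SiHa. Its counts were 306, 248, 256, 259 and 201 at pH 6.5 and 357, 397 and 437 at pH 7.4, with no overlap, a change of -0.65 ± 0.15 (adjusted p = 0.00846). In HCT116 it stood at 254 and 274 against 339, 193, 137, 123 and 173, where replicate 1 at pH 7.4 lay above both libraries at pH 6.5. That change of 0.55 ± 0.32 was not called (adjusted p = 0.261), and without that replicate it was 0.77 and was called (adjusted p = 0.0219). FaDu held little DGAT2, 49.97, 35.4, 35.9, 44.9 and 42.0 at pH 6.5 against 74.7, a change of -0.84 ± 0.30 (adjusted p = 0.125) that was called without replicate 1 (-0.91, adjusted p = 0.0329).

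DGAT1 (ENSG00000185000), which carries out the same step as DGAT2, did not pass the test in any line. SiHa libraries ran from 1826 to 2730 at pH 6.5 and from 1622 to 2019 at pH 7.4, a change of 0.30 ± 0.14 (adjusted p = 0.114). HCT116 stood at 2169 and 1750 against 1863 to 2737, a change of -0.18 ± 0.17 (adjusted p = 0.491). FaDu ran from 664 to 778 at pH 6.5, all below the 855 of the pH 7.4 library, a change of -0.28 ± 0.14 (adjusted p = 0.238). So of the pair only DGAT2 was called, and only in SiHa; whether the 2 enzymes differed was not tested.

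Coat genes come next. PLIN2 (ENSG00000147872), the main perilipin of cells other than fat cells, stood at 1509, 1661, 1466, 1600 and 1710 in SiHa at pH 6.5 and at 1180, 1247 and 1281 at pH 7.4. The groups did not overlap, and the rise of 0.36 ± 0.09 (adjusted p = 0.0111) was the smallest of the 5 called changes in that line. HCT116 stood at 800 and 774 against 949, 817, 883, 796 and 976, a change of -0.16 ± 0.14 (adjusted p = 0.444). FaDu stood at 806, 586, 770, 903 and 656 against 1138. All 5 lay below that library, and the change of -0.63 ± 0.23 was not called (adjusted p = 0.131), although it was without replicate 1 (-0.66, adjusted p = 0.0485).

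PLIN3 (ENSG00000105355), a coat protein that also moves freely in the cytosol, was not called in any line. In SiHa it ranged from 2523 to 3470 at pH 6.5, around the 3019 to 3061 at pH 7.4, a change of -0.06 ± 0.11 (adjusted p = 0.732). HCT116 held 6090 and 5230 against 5267 to 7417 (-0.17 ± 0.15, adjusted p = 0.472). FaDu held 1885, 1289, 1356, 1403 and 1192 against 2322, all lower, with a change of -0.72 ± 0.23 (adjusted p = 0.0961). Without replicate 1 at pH 6.5, the highest of the 5, the FaDu change was -0.83 (adjusted p = 0.00161).

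The lipase inhibitors follow. G0S2 (ENSG00000123689), which binds PNPLA2 and blocks it, stood at 3147, 4563, 2074, 2041 and 2333 in SiHa at pH 6.5 and at 1021, 1185 and 1147 at pH 7.4. The lowest library at pH 6.5 was above the highest at pH 7.4, and the rise of 1.27 ± 0.23 (adjusted p = 0.00252) was the largest among the 10 genes in SiHa. In the 5 FaDu libraries at pH 6.5 G0S2 had 3 reads in all, in the FaDu library at pH 7.4 3 reads, in HCT116 at pH 6.5 1 read and at pH 7.4 3 reads. Each of these 13 libraries was at or under the limit of 3 reads that a count of 0 allows, so no pH ratio is given for them.

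HILPDA (ENSG00000135245), a hypoxia-induced inhibitor of PNPLA2, did not pass the test in SiHa, with 322, 341, 349, 296 and 336 at pH 6.5 and 309, 357 and 362 at pH 7.4 (-0.06 ± 0.12, adjusted p = 0.741). HCT116 stood at 583 and 592 against 492.5, 471, 561, 569 and 561. Both libraries at pH 6.5 were above all 5 at pH 7.4, by 0.15 ± 0.15, which was not called (adjusted p = 0.511). FaDu stood at 542, 495, 528, 486 and 499 against 330, and this rise of 0.63 ± 0.14 was called (adjusted p = 0.0446). The FaDu call rests on 1 library at pH 7.4 and ended on leaving out replicate 2, 3, 4 or 5 at pH 6.5 (adjusted p = 0.0901 to 0.126) and by edgeR (0.0553).

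On the side of lipolysis, PNPLA2 (ENSG00000177666), the enzyme that starts it, rose in HCT116. It stood at 3084 and 2446 at pH 6.5 and at 2330, 1446, 1408, 1502 and 1555 at pH 7.4, a change of 0.76 ± 0.19 (adjusted p = 0.0156). The groups did not overlap, and replicate 1 was the highest of both. Without pH 6.5 replicate 1 the change was 0.60 and was not called (adjusted p = 0.171); without pH 7.4 replicate 1 it was 0.93 (adjusted p = 0.000587). In SiHa it ran from 1597 to 2172 at pH 6.5 and from 2033 to 2422 at pH 7.4 (-0.30 ± 0.12, adjusted p = 0.0702). That difference was called without pH 6.5 replicate 1 (-0.36, adjusted p = 0.0235). FaDu stood at 1375 to 1481 against 1459 (-0.05 ± 0.11, adjusted p = 0.803).

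ABHD5 (ENSG00000011198), without which PNPLA2 works slowly, fell in SiHa and FaDu. SiHa stood at 666, 677, 731, 739 and 814 at pH 6.5 and at 885, 1176 and 1173 at pH 7.4, a change of -0.56 ± 0.12 (adjusted p = 0.00626) with no overlap. FaDu stood at 347, 389, 301, 327 and 290 against 715. All 5 were lower, by -1.12 ± 0.19 (adjusted p = 0.0236). The call ended on leaving out replicate 3, 4 or 5 at pH 6.5 (adjusted p = 0.0544 to 0.0803). HCT116 stood at 490 and 511 against 515 to 623, lower in both libraries by -0.17 ± 0.14 (adjusted p = 0.445).

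Counting libraries alone, the groups did not overlap for 5 of 10 genes in SiHa, 4 of 9 in HCT116 and 6 of 9 in FaDu, against 35.5%, 36.2% and 57.1% of all genes tested. Medians over the genes tested were -0.06 in SiHa, -0.17 in HCT116 and -0.28 in FaDu, beside -0.01 over all genes tested in each line. The 5 SiHa calls were made under each of the 20 alternatives run for that line. FaDu has the least support: leaving out pH 6.5 replicate 1 gave 6 genes called, replicate 2 gave 1, and replicate 3, 4 or 5 gave 0. Across all genes the FaDu count of 1411 became 7039 without replicate 1 and 66 without replicate 4.

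**Figure D2:**
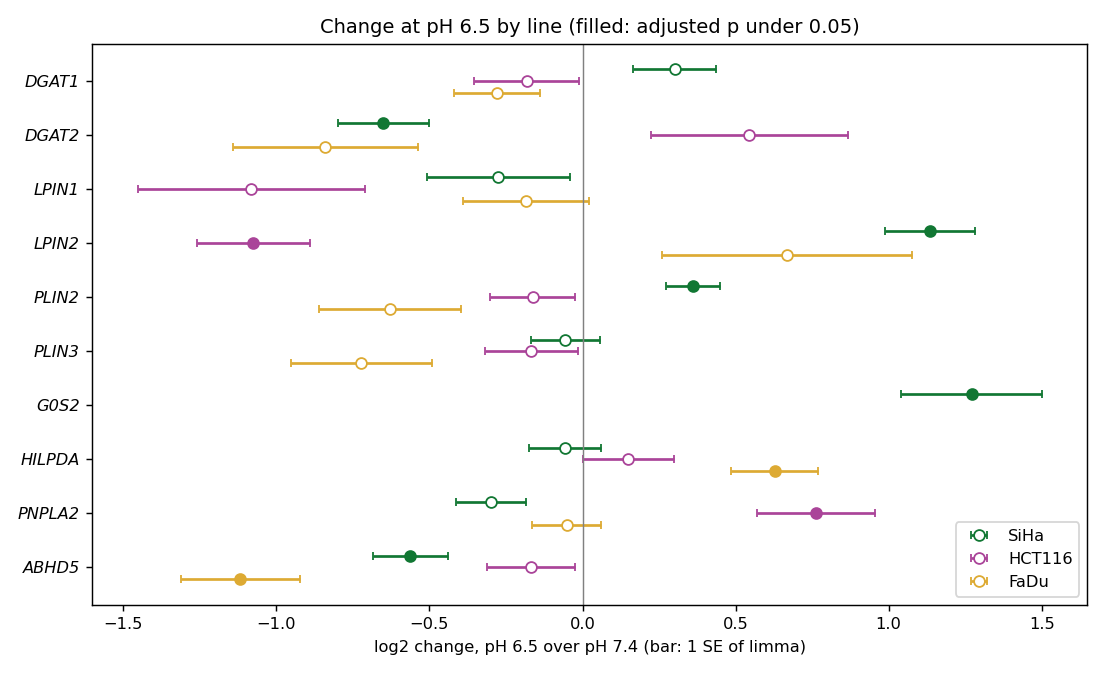
Log2 change at pH 6.5 over pH 7.4 of each gene in SiHa, HCT116 and FaDu, with 1 SE, over the 21 libraries kept. Filled points passed the test. LPIN2 lies at 1.13 in SiHa and at -1.07 in HCT116, and ABHD5 lies below 0 in all 3 lines and was called in SiHa and FaDu.

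Whether the pH effect itself differed between the lines was tested in 1 fit over the 21 libraries (limma F-test). Of the 9 genes whose level allowed a test in every line it did for 6, against 36.7% of all such genes: LPIN2 (adjusted p = 9.88e-05), PNPLA2 (0.0021), PLIN2 (0.00326), ABHD5 (0.00932), DGAT2 (0.0198) and HILPDA (0.0225). PLIN3 (0.101), DGAT1 (0.0907) and LPIN1 (0.270) did not pass, though PLIN3 did without FaDu pH 6.5 replicate 1 (0.0196). G0S2, at 0 to 3 reads in FaDu and HCT116, gives no reading of this difference and is left out of the counts. Leaving out either HCT116 library at pH 6.5 ended the DGAT2 call (0.0601 and 0.0778), and leaving out SiHa pH 7.4 replicate 5 ended that of HILPDA (0.0508).

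Taken by pairs of lines, the pH effect in HCT116 minus that in SiHa was called for LPIN2 (-2.21), DGAT2 (1.20), PNPLA2 (1.06) and PLIN2 (-0.52), 4 of 9 genes against 27.4%. The LPIN2 and PNPLA2 calls were kept on leaving out any 1 of the 15 libraries of the pair. That of DGAT2 ended without HCT116 pH 6.5 replicate 1 (adjusted p = 0.0567) or 3 (0.0687), which left 2 genes called. That of PLIN2 (adjusted p = 0.0361) ended in 10 of the 15 cases (up to 0.101), and was kept only without HCT116 pH 7.4 replicate 1, 3 or 6 or SiHa pH 6.5 replicate 1 or 5. FaDu minus SiHa was called for PLIN2 (-0.99) and HILPDA (0.69), 2 of 9 against 16.4%. FaDu minus HCT116 was called for LPIN2 (1.74), DGAT2 (-1.39), ABHD5 (-0.95) and PNPLA2 (-0.81), 4 of 9 against 17.3%. Of these, LPIN2 and ABHD5 were called on leaving out any 1 of the 12 libraries. DGAT2 ended in 8 of the 12 cases, all but FaDu pH 6.5 replicate 1 or 4 and HCT116 pH 7.4 replicate 1 or 3 (adjusted p up to 0.0853), and by edgeR (0.0656). PNPLA2 also ended in 8, all but FaDu pH 6.5 replicate 1 or 4, HCT116 pH 6.5 replicate 3 and HCT116 pH 7.4 replicate 1 (up to 0.158). The count was 2 to 5. These pairs share libraries, and those with FaDu share its 1 library at pH 7.4.

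Storage was then set against lipolysis in each library, as the mean log2 level of PLIN2, PLIN3, DGAT1, DGAT2, G0S2 and HILPDA minus that of PNPLA2 and ABHD5. These differences describe the libraries and carry no test. Counts are not divided by gene length, so only a shift of this value between groups can be read, not its level. In SiHa the value was -0.01 ± 0.12 (SD, n = 5) at pH 6.5 and -0.63 ± 0.05 (n = 3) at pH 7.4, so storage genes stood 0.63 higher relative to lipolysis genes at pH 6.5. In HCT116 it was -1.73 ± 0.09 (n = 2) against -1.45 ± 0.10 (n = 5), a difference of -0.28, with no overlap. FaDu stood at -2.03 ± 0.11 (n = 5) and at -2.03 in the 1 library at pH 7.4. The value was thus higher at pH 6.5 in SiHa and lower in HCT116. The FaDu libraries lay around their control, in a value that includes G0S2 counts too low to read there.

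G0S2 carries part of the SiHa value and, at 0 to 3 reads, none that can be read elsewhere. Without it the difference was 0.41 in SiHa, -0.26 in HCT116 and 0.22 in FaDu. Without both G0S2 and HILPDA, which leaves coats and acyltransferases, it was 0.42, -0.29 and -0.03. The direction in SiHa and HCT116 was the same each time, and the FaDu value depended on G0S2 and HILPDA.

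Single pairs with PNPLA2 show part of the contrast, and ABHD5 was not paired. In SiHa both lipolysis genes had lower estimates, ABHD5 by -0.56 and PNPLA2, not called, by -0.30. Storage genes other than G0S2 ran there from -0.65 (DGAT2) to 0.36 (PLIN2). The SiHa shift without G0S2 is thus no common rise of storage genes. In HCT116 PNPLA2 rose by 0.76 and ABHD5 stood at -0.17. The same storage genes ran there from -0.18 (DGAT1) to 0.55 (DGAT2). G0S2 minus PNPLA2 in SiHa was 0.56 ± 0.40 at pH 6.5 and -1.01 ± 0.23 at pH 7.4, a difference of 1.57 on the log2 scale. PLIN2 minus PNPLA2 moved by 0.66 in SiHa, by -0.93 in HCT116 and by -0.58 in FaDu. HILPDA minus PNPLA2 moved by 0.24, -0.61 and 0.68. The pH groups did not overlap for PLIN2 minus PNPLA2 in any of the lines, which was higher at pH 6.5 in SiHa and lower in HCT116 and FaDu. For HILPDA minus PNPLA2 they overlapped in SiHa and in HCT116, and the SiHa shift was about as large as the SD of 0.20 at pH 6.5 and 0.23 at pH 7.4.

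**Figure D3:**
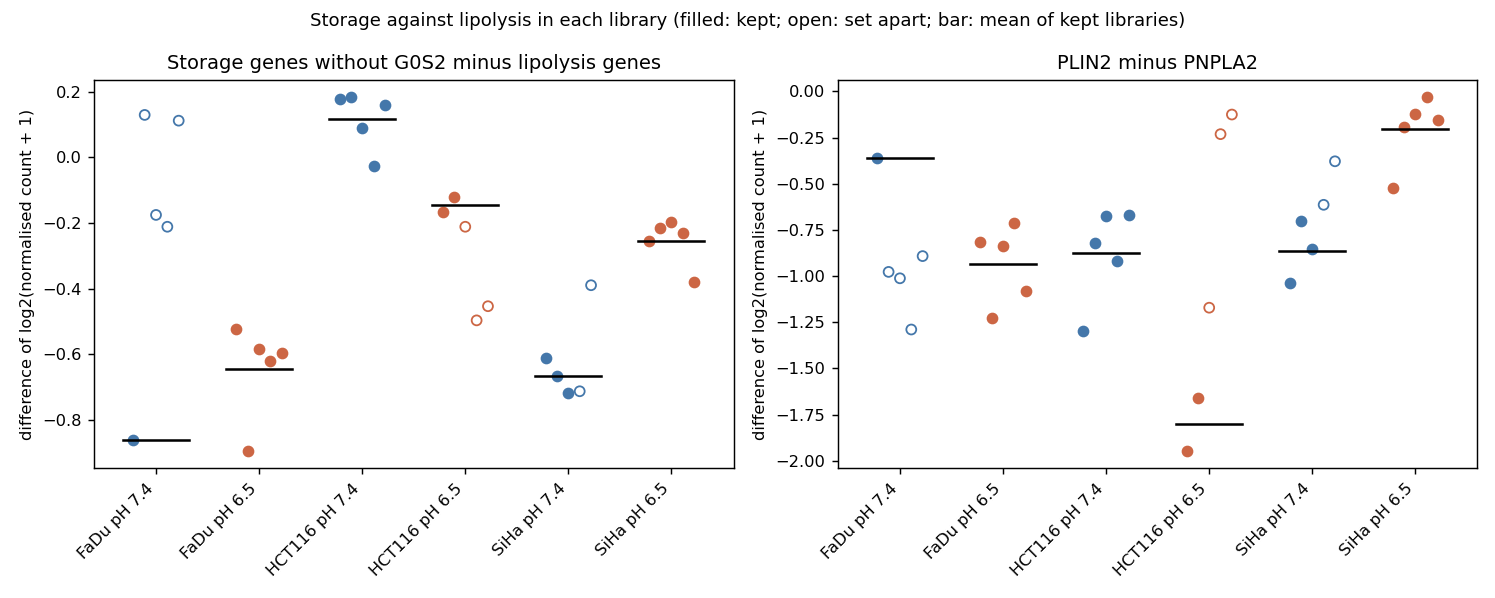
Left, mean log2 level of storage genes without G0S2 minus that of the lipolysis genes PNPLA2 and ABHD5 in each library. Right, PLIN2 minus PNPLA2. Filled points are libraries kept, open points those set apart, and bars are means over libraries kept. On the left, SiHa libraries kept lie higher at pH 6.5 (mean -0.26) than at pH 7.4 (mean -0.67), and HCT116 libraries kept lie lower (-0.14 against 0.12).

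As among all genes, more of the 10 genes differed between lines than between the pH groups of a line. Over all genes the shares were 63.0% to 70.2% between lines and 7.36% to 31.2% by pH. Line comparisons came from 1 fit over the 21 libraries and pH comparisons from a separate fit per line. At pH 6.5, 9 of the 10 genes differed between FaDu and SiHa, against 70.2% of all genes. HILPDA was higher in FaDu by 0.63 ± 0.09 (1 gene, against 37.9% of all genes higher), and 8 genes were lower (against 32.3%). LPIN2 was lower by -3.25 ± 0.18, DGAT2 by -2.58 ± 0.21 and DGAT1 by -1.61 ± 0.12, and G0S2 stood at most at 1.39 in FaDu against 2041 to 4563 in SiHa. LPIN1 alone did not pass (0.56 ± 0.26, adjusted p = 0.0608), although it did without SiHa pH 6.5 replicate 4 (0.0193).

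At pH 7.4, 8 of 10 genes differed between HCT116 and SiHa, against 68.5% of all genes. PLIN3 (1.06 ± 0.14), HILPDA (0.63 ± 0.10) and DGAT1 (0.34 ± 0.14) were higher in HCT116, 3 genes against 34.7%. DGAT2 (-1.13), ABHD5 (-0.93), PLIN2 (-0.49), PNPLA2 (-0.48) and G0S2 were lower, 5 genes against 33.8%, with G0S2 at most at 1.23 against 1021 to 1185. The DGAT1 call (adjusted p = 0.0377) ended under TMM scaling (0.0708) and on leaving out any of 5 single libraries. Between FaDu and HCT116 at pH 6.5, 7 of 10 differed, against 63.0%. LPIN1 was higher in FaDu (1.52 ± 0.34), 1 gene against 32.4%. DGAT2 (-2.65), PLIN3 (-2.003), DGAT1 (-1.47), PNPLA2 (-0.96), LPIN2 (-0.80) and ABHD5 (-0.60) were lower, 6 genes against 30.5%. The LPIN2 call in that pair ended without HCT116 pH 6.5 replicate 1 (adjusted p = 0.0801). PLIN2 and HILPDA were not called in that pair, and G0S2 was at the limit of detection in both lines.

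The 9 libraries set apart change what the labels alone would give. G0S2, near 0 in HCT116, stood at 1126, 2638 and 2376 in the libraries labelled HCT116 pH 6.5 replicates 5, 6 and 7. Of the 10 genes, 9 lay within the range of SiHa at pH 6.5 in replicate 6 and 7 did so in replicate 7. DGAT2 stood at 240, 194, 191 and 246 in the libraries labelled FaDu pH 7.4 replicates 2 to 5, against 74.7 in replicate 1. PLIN3 stood at 5229, 3502, 3864 and 3672 there, against 2322. In each of these cases the value lay on the side of the other line.

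With all 30 libraries as labelled, 6 of 10 genes were called in SiHa (40.8% of all genes), 0 of 10 in HCT116 (18.2%) and 4 of 9 in FaDu (46.3%). The SiHa calls held and DGAT1 joined them (0.34, adjusted p = 0.0288). In HCT116 LPIN2 turned from -1.07 to 0.36 (adjusted p = 0.636) and PNPLA2 fell short at 0.50 (adjusted p = 0.0781). In FaDu DGAT2 (-2.06), PLIN3 (-1.35), DGAT1 (-1.04) and ABHD5 (-0.76) were called lower, and HILPDA was not called (0.29, adjusted p = 0.0540). SiHa pH 7.4 replicates 6 and 7, the VIM-high pair, stood at 647 and 1679 for G0S2, on both sides of the other 3.

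Beyond the 10 genes, 46 others of triglyceride synthesis, droplet coat and biogenesis, glyceride hydrolysis and steryl ester storage were in the table. In SiHa 36 were tested, and 8 rose and 4 fell, against 15.0% of all genes higher and 16.2% lower. In HCT116 1 of 38 rose and 7 fell, against 9.11% and 11.1%. In FaDu 2 of 36 rose and 0 fell, against 4.24% and 3.12%. The median change was 0.04 in SiHa, -0.12 in HCT116 and 0.08 in FaDu. The counts per list below stand against the same shares of all genes, and none of these lists was tested as a set.

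Among 14 synthesis genes, 10 were tested in SiHa, with 3 higher and 2 lower. GPAT3, which starts glycerolipid synthesis, rose from 169 ± 28.5 (n = 3) at pH 7.4 to 367 ± 72.9 (n = 5) at pH 6.5, by 1.10 ± 0.19 (adjusted p = 0.0017). AGPAT4 (0.47) and TMEM68 (0.42), an acyltransferase, rose as well, and AGPAT2 (-0.58), which makes phosphatidate, fell. HCT116 had 0 higher and 2 lower of 11: AGPAT4 fell from 2434 ± 794 to 487 ± 46.4, by -2.26 ± 0.27, and AGPAT5 by -0.65. AGPAT4 therefore had called changes of opposite sign in SiHa and HCT116, as LPIN2 did. In FaDu 0 of 10 passed.

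Of 18 coat and biogenesis genes in the table, 14 were tested in each line. FAF2, a droplet protein of the ubiquitin pathway, rose in SiHa by 0.24 (adjusted p = 0.0445), and 2 genes in all were higher there. In HCT116 PLIN4, a perilipin, fell from 463 ± 88.6 to 160 ± 36.0 (-1.52 ± 0.22), and TMT1B, a droplet methyltransferase, rose from 386 ± 54.2 to 776 ± 31.8 (1.02 ± 0.17). FaDu had 1 called gene, PLIN5, at 41.4 ± 12.3 against 2.197, a level too low for the naming rule and chosen after its values were seen. SPART, a droplet protein also named after its values were seen, stood at 0 to 4.58 in HCT116 and at 2430 to 3980 in the kept libraries of the other lines.

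Hydrolysis genes were mixed. PNPLA3, a relative of PNPLA2, rose in SiHa from 140 ± 12.9 to 294 ± 63.8 (1.04 ± 0.18), and CES1, a carboxylesterase, rose from 13.8 ± 4.45 to 87.9 ± 56.2 (2.40 ± 0.47). LIPA, the acid lipase of the lysosome, fell there from 3722 ± 194 to 2195 ± 442 (-0.79 ± 0.16). In HCT116 MGLL, which splits monoglyceride, fell by -1.21 ± 0.32 (adjusted p = 0.0197) and DDHD2 by -0.43, 2 lower and 0 higher of 10. In FaDu DDHD2 rose from 599 to 1858 ± 336 (1.61 ± 0.25, adjusted p = 0.0191), 1 of 10. LIPE, the hormone-sensitive lipase, was not called in SiHa (0.13), HCT116 (-0.20) or FaDu (0.33).

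Steryl esters share the droplet with triglyceride. SOAT1, which makes them, rose in SiHa by 0.43 ± 0.11 (adjusted p = 0.0142) and fell in HCT116 by -0.43 ± 0.12 (adjusted p = 0.0263). NCEH1, which hydrolyses them, fell in SiHa by -0.68 ± 0.14 (adjusted p = 0.0041). Neither was called in FaDu.

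**Figure D4:**
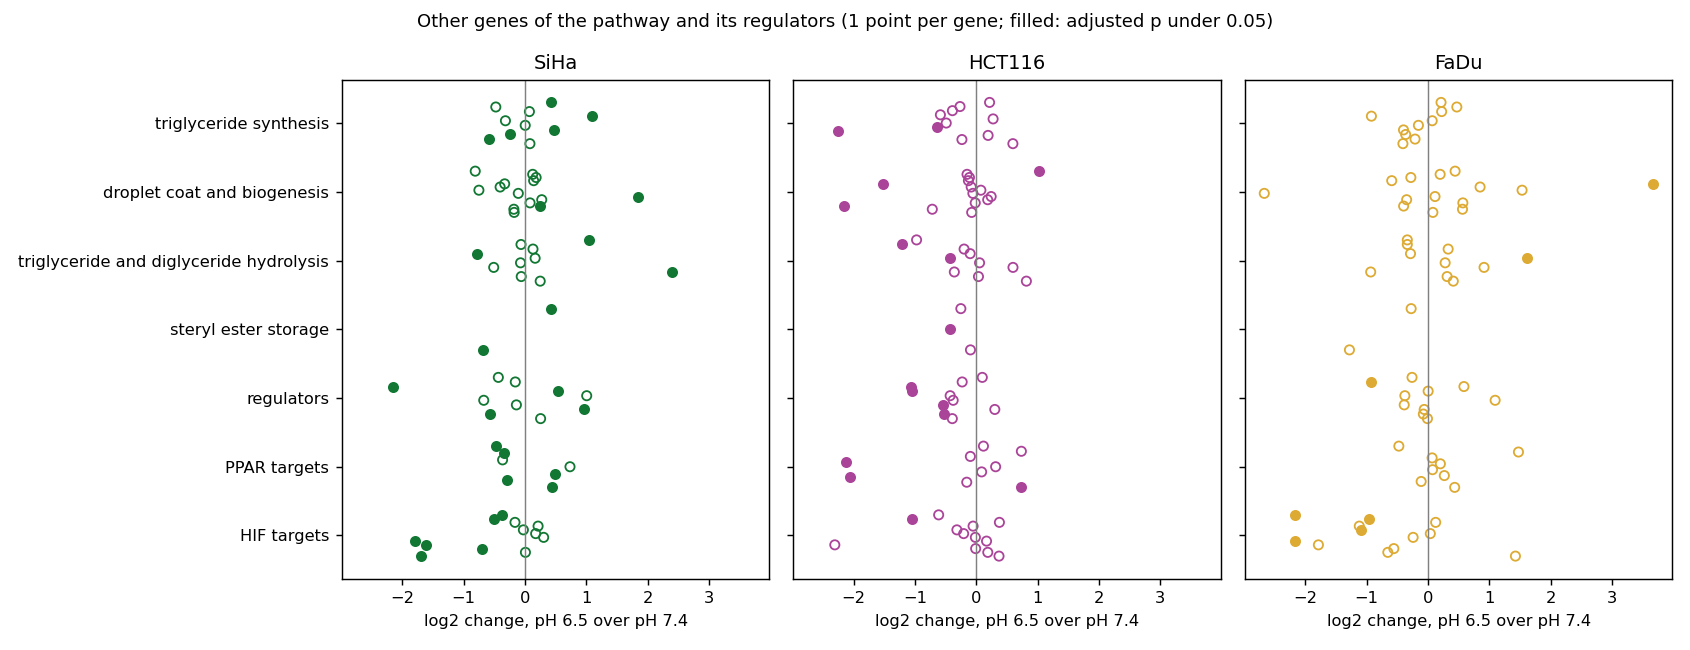
Log2 change at pH 6.5 over pH 7.4 of the other pathway genes, regulators and target genes in each line, 1 point per gene tested, filled where the gene passed the test. In SiHa all 6 filled points among HIF targets lie below 0, as do the 4 in FaDu, and PPARG lies at -2.15 in SiHa and -1.07 in HCT116.

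Regulators of lipid storage were also examined. PPARG, a nuclear receptor that drives fat storage genes, fell in SiHa from 978 ± 65.4 to 228 ± 68.3 (-2.15 ± 0.23) and in HCT116 from 3398 ± 572 to 1598 ± 14.8 (-1.07 ± 0.17). PPARD, a related receptor, rose in SiHa (0.55) and fell in HCT116 (-1.05). FOXO1, a factor of the fasting response, rose in SiHa (0.96). EPAS1, which encodes HIF-2 alpha, fell in both (-0.57 and -0.53), and HIF1A fell in HCT116 (-0.54). In FaDu SREBF1, a driver of lipid synthesis, fell by -0.92 ± 0.18 (adjusted p = 0.0298). Called regulators numbered 4 of 10 in SiHa, 4 of 10 in HCT116 and 1 of 10 in FaDu, against 31.2%, 20.2% and 7.36% of all genes.

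Targets of the PPAR receptors had no common direction. In SiHa 2 of 7 rose, ACSL1 (0.48) and ACADVL (0.44), and 3 fell, among them SLC25A20 (-0.48) and HADHA (-0.34), genes of fatty acid oxidation, against 15.0% of all genes higher and 16.2% lower. In HCT116 ACADVL rose (0.73) and ACSL1, which activates fatty acids, fell from 4653 ± 620 to 1109 ± 141 (-2.06 ± 0.15), with 1 higher and 2 lower of 9, against 9.11% and 11.1%. In FaDu 0 of 8 passed, against 7.36%.

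HIF targets called were lower at pH 6.5: 6 of 12 in SiHa, 1 of 12 in HCT116 and 4 of 12 in FaDu, against 16.2%, 11.1% and 3.12% of all genes lower. The 1 in HCT116 is no more than that share. Their medians were -0.27, -0.04 and -0.80. SiHa examples were DDIT4 (-1.78), ADM (-1.70) and BNIP3 (-0.69), and FaDu examples were DDIT4 (-2.16), VEGFA (-2.16) and NDRG1 (-1.09). SLC2A1, the glucose transporter, was lower in SiHa (-0.50), HCT116 (-1.05) and FaDu (-0.96). HILPDA, which is also known as a HIF target, did not share that direction: it was called higher in FaDu and was not called in SiHa or HCT116.

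Markers of other cells were read beside these results. Of 7 adipocyte markers in the table, LEP, FABP4 and CIDEA stood at 0 to 2.12 in all kept libraries. CIDEC stood at 0 to 15.9, PLIN1 at 3.42 to 92.8, LIPE at 43.9 to 283 and CFD at 70.0 to 1407. The adipocyte sum was 154 to 226 at pH 6.5 and 234 to 296 at pH 7.4 in SiHa, 1150 to 1601 and 1180 to 1412 in HCT116, where CFD made up most of it, and 311 to 483 and 381 in FaDu. Of 6 macrophage markers, CD14 was the only one above 10.8 in SiHa, at 809 to 1881 and 708 to 1368, while PTPRC reached at most 1.72 and 2.04. The 6 squamous markers summed to 1954 to 2213 in HCT116 at pH 6.5 and to 56.1 to 132 at pH 7.4, from KRT5, KRT14 and KRT6A, with TP63 at most at 3.42 and 7.41. The 6 colon epithelium markers summed to 846 to 1058 in HCT116 at pH 6.5 and to 1325 to 1730 at pH 7.4. Among them HNF4A stood at 7.98 to 14.9 against 566 to 713, VIL1 at 1.14 to 2.29 against 24.6 to 104 and CDX2 at 821 to 1030 against 700 to 918, while CDX1 was at 0. The 5 mesenchymal markers overlapped between the pH groups of HCT116, at 1314 to 1720 and 932 to 2758, mostly COL1A1. In SiHa they summed to 102 to 252 at pH 6.5 and 260 to 462 at pH 7.4. The part of these differences in the HCT116 and SiHa results was not tested.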

How the data were processed

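RNA of 30 libraries was sequenced. Per the submitters' processing notes, the authors' tools, listed with no role or order, included STAR 2.6.1d, DESeq2 1.22.2, Trimmomatic 0.38, FastQC and bcl2fastq 2.20, and the build listed is GRCh37. Which program counted reads, with which strand setting and annotation, is not given in the sources used here. Values as deposited by the authors are in the unit signal, normalised counts per gene: 100% of the values were whole reads within 0.01 once divided by the library's step. The recovered reads held 21.02 to 55.7 M per library, and the edgeR test on them called 5798 genes in SiHa, 3802 in HCT116 and 1325 in FaDu, against 5787, 3819 and 1411 by limma.

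Symbols were found for 35466 of 38122 identifiers, with TMT1A and TMT1B under older names. CIDEB was not analysed here. Python 3.11.15, pandas 2.3.3, R 4.3.3, limma 3.58.1, edgeR 4.0.16 and DESeq2 1.42.0 were used. Log2 of the normalised count plus 1 was fitted in limma, trend included, line by line, in 2-sided tests over genes whose higher group averaged at least 10. Where FaDu pH 7.4 has 1 library, that library is assumed to vary like the others. The 9 libraries set apart were chosen from reads of another line or from VIM. Statistics were tested on simulated data.

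The 10 genes, the other lists and the libraries set apart were chosen with earlier results of these data known. Of each other list and line, up to 4 called genes with the largest change and a mean of at least 50 were named. Promoter sequences came from RefSeq on GRCh38.p14. Alternatives changed the pseudocount, filter, scaling, test, libraries, replicate number and single replicates.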

Additional observations from a re-analysis of the deposited data

Results flagged for a closer look

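In HCT116 at pH 7.4, PNPLA2 stood at 2330 in replicate 1 and at 1408 to 1555 in the other 4, a gap past Dixon's critical value. This was the only such gap in 28 groups examined, and chance gives about 1 in 20. LPIN1 and DGAT2 of the same library were also apart from the rest, at 1067 against 1774 to 4103 and at 339 against 123 to 193, without passing that value. The part of this library in the HCT116 results is given by the values without it.

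By the limma F-test of the interaction, the effect of pH differed between the lines for 6 of the 9 genes tested in every line. The share over all genes tested in every line was 36.7%. Adjusted p-values were 9.88e-05 for LPIN2, 0.0021 for PNPLA2, 0.00326 for PLIN2, 0.00932 for ABHD5, 0.0198 for DGAT2 and 0.0225 for HILPDA. The DGAT2 and HILPDA calls ended when certain single libraries were left out. For LPIN2 the called changes had opposite signs, in 5 of 5 SiHa libraries above and 2 of 2 HCT116 libraries below the whole pH 7.4 group.

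G0S2 was found where its line lacks it. In the libraries labelled HCT116 pH 6.5 replicates 5, 6 and 7 it stood at 1126, 2638 and 2376, against at most 1.23 in the HCT116 libraries kept. The same libraries expressed SiHa-restricted genes at 37.5%, 101% and 104% of the amount in SiHa.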

How the results depend on the processing

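Limits: the FaDu comparison has 1 library at pH 7.4 and the HCT116 comparison 2 at pH 6.5, and the cause of each shift below was not tested unless named. SiHa members called ran from 5 to 6 with 1 library left out, and genes called from 3551 to 6473, the lowest without pH 7.4 replicate 5. HCT116 members called ran from 1 to 4 and genes from 2198 (without pH 6.5 replicate 1) to 5150 (without pH 7.4 replicate 1). FaDu members ran from 0 to 6 and genes from 66 to 7039. FaDu members numbered 1 by edgeR and 4 in 1 fit over all kept libraries, and FaDu genes 2591 by DESeq2 and 2566 in that 1 fit. With all libraries as labelled, members called were 0 in HCT116 and 4 in FaDu, and FaDu genes 9115; in this case libraries of another line enter the groups.

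Whether the replicate numbers pair the libraries was not settled, because the correlations were mixed. Deviations of same-numbered kept libraries correlated at 0.446, 0.0388 and 0.139 in SiHa and at 0.232 and 0.0964 in HCT116. In SiHa 2 of 3 libraries were most like their own number, and in HCT116 replicate 1 was and replicate 3 was not. For replicate 1 the highest correlation with another number was -0.226 in SiHa and -0.0336 in HCT116. As labelled, each FaDu library was most like its own number, at 0.0513 to 0.113. HCT116 replicates 3, 5, 6 and 7 and SiHa replicates 4 and 5 as labelled were not. With the replicate number as a block, 5 SiHa members and 5237 genes, and 3 HCT116 members and 2927 genes, were called; LPIN1 in HCT116 was then called (-0.58, adjusted p = 0.0260) and PLIN3 in SiHa was 0.075. The kept FaDu libraries share 1 number, so the block was not fitted there. With the block and all libraries as labelled, HCT116 had 0 members and 1407 genes and FaDu 5 members and 8851 genes.

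Reversals were mostly of values not called. As labelled, with or without the block, HCT116 gave PLIN2 0.35, HILPDA -0.32, ABHD5 0.19 and LPIN2 0.36, and FaDu gave LPIN2 -0.70 (adjusted p = 0.0344 with the block). As labelled, 6284 genes in place of 3302 differed in pH effect between FaDu and SiHa. HILPDA as labelled between FaDu and HCT116 was 0.27. As labelled, pH effects of HCT116 minus SiHa were 0.00954 for PLIN2 and -0.32 for HILPDA, and LPIN2 in FaDu minus HCT116 was -1.06. With single libraries left out, LPIN1 between HCT116 and SiHa ran from -0.39 to 0.10, the LPIN1 pH effect of FaDu minus SiHa from -0.073 to 0.25 and the DGAT1 pH effect of FaDu minus HCT116 from -0.25 to 0.057. The storage value in SiHa was 0.42 without HILPDA and G0S2 and 0.41 without G0S2. As labelled it was 0.63 in HCT116 and -0.35 in FaDu, where a pseudocount of 10 gave 0.23 and leaving out G0S2 0.22; the last alternative and the labelled one were chosen after seeing the data. Over all alternatives of single genes and of pairwise counts of the pH effect, 1913 results stayed the same. Of the rest, 64 were weaker, 37 stronger, 20 reversed and 12 moved. A single gene stayed the same if it kept its direction and side of the threshold. Of the main counts and storage values, 273 stayed the same and 31 moved. These were judged by size: a count within a fixed ratio of the main one, a storage value within the SD between libraries.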

Other observations

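Genes whose pattern over the 21 kept libraries was most like that of 3 members, after centring each gene within its line, are given as a description over 13236 genes with a mean of at least 100. These libraries share lines and pH groups, and the 5 highest Pearson correlations are by choice high. For PLIN2 they were STEAP2 (0.846), SMOX (0.833), NUDCD2 (0.822), PRKX (0.817) and TDP1 (0.815). For G0S2 they were CTBP1 (0.829), CCNI (0.821), ATF4P3 (0.818), SEC24D (0.814) and ALG5 (0.810). In FaDu and HCT116 G0S2 was at the limit of detection, so counting error there enters its correlations. ATF4P3 is a processed copy of ATF4, and whether its reads came from the parent gene was not tested. For HILPDA they were EXOSC5 (0.827), ZCCHC2 (0.814), MRPS11 (0.801), MESP1 (0.796) and DENND5A (0.793). PNPLA2, the lipase that all 3 bear on, stood at -0.18 with PLIN2, -0.02 with G0S2 and 0.09 with HILPDA.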
